A study of Mus musculus with 6 samples.

Results

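The data described here are the levels of 43 homeobox and paired box transcription factors of regional neural identity in neural stem cells (NSCs) of the mouse. The 43 genes were chosen as a list of symbols, and all 43 were found among the 53110 genes of the deposited table. RNA-seq had been run on primary NSCs from the embryonic telencephalic cortex (E14.5), which were kept as adherent cultures with bFGF and EGF at 21% O2, and both genotypes shared this medium and oxygen level. The WT cells were compared with Setd5+/- cells, in which CRISPR-Cas9 had mutated 1 allele of Setd5, the gene of a SET domain chromatin protein. The labels list 3 samples of each genotype, and each of the 6 samples is given below by its number in them.

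Homeobox genes encode transcription factors that bind short, AT-rich DNA elements through a homeodomain. In the developing neural tube they are expressed in bands along the anterior to posterior axis and in layers along the dorsal to ventral axis, and their combinations mark forebrain, midbrain, hindbrain and spinal cord progenitors. Many of them repress one another at the border of their domains. The proteins of the TALE class, Meis and Pbx, are broadly expressed and bind DNA together with other homeodomain proteins.

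The 3 samples of a genotype could not be told apart from parts of 1 library. A chi-square test of read pairs gave, per degree of freedom, values between 0.958 and 0.981 within a genotype and between 31.7 and 31.9 between genotypes, and the column names give 1 index and 1 lane per genotype. Each genotype therefore counts as 1 sample (n = 1), with 30004634 reads on genes in WT against 21435546 in Setd5+/- NSCs, and no difference below has a replicate check. Where samples of the genotypes are said below not to overlap, they are parts of these libraries, so this describes counting spread only. The share of all tested genes without overlap was not computed. Clone, library, index and lane went with genotype and cannot be told apart from it. The mutant columns carry the clone name A3, whereas the text of the study names other clones. Setd5 (chromosome 6, 113077365 to 113153435, GRCm38) had 2498, 2749 and 2780 normalized counts in WT against 2151, 1990 and 2055 in Setd5+/- NSCs (log2 fold change −0.37, 95% counting interval −0.44 to −0.30). The median log2 fold change was −0.02 over the 16266 genes tested and 0.53 over the 1044 of them on chromosome 1, where En1, Gbx2, Lhx9 and Pax3 lie. All 12 neural stem cell markers looked at reached a mean of 10 normalized counts, with 1 at least 2-fold higher in Setd5+/- NSCs, as were 10.3% of all tested genes, and 3 at least 2-fold lower, as were 6.14%. Their summed level was 78513 to 78582 normalized counts in the WT and 62749 to 63601 in the Setd5+/- samples. Fabp7 (36015 and 11490) set this order, and the other 11 summed to 42350 to 42632 and 51181 to 52218.

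A member was called expressed in a genotype when its mean over the 3 samples was at least 10 normalized counts, that is, reads divided by the size factor of the sample. By this measure 14 members were expressed in WT against 18 in Setd5+/- NSCs, 13 of them in both, but at a threshold of 20 normalized counts the order turned, with 14 in WT and 13 in Setd5+/- NSCs. Gsx1 was expressed in WT alone, and En1, En2, Msx1, Nkx6-2 and Vax2 in Setd5+/- alone. The split is a matter of the threshold for Nkx6-2, which had 9.94 normalized counts in WT against 12.3 in Setd5+/- NSCs. The other 24 members reached the threshold in neither genotype, and 15 of these had 0 reads in all 6 samples: Pax2, Pax8, Pax3, Pax7, Msx2, Irx4, Lhx1, Lhx5, Lhx6, Nkx2-1, Nkx6-1, Dbx1, Vax1, Barhl2 and Six6. A count of 0 reads allows a level of up to 1.66 normalized counts in WT and 2.38 in Setd5+/-, taken as 3 read pairs over the 3 samples, and covers counting error only.

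**Figure D1:**
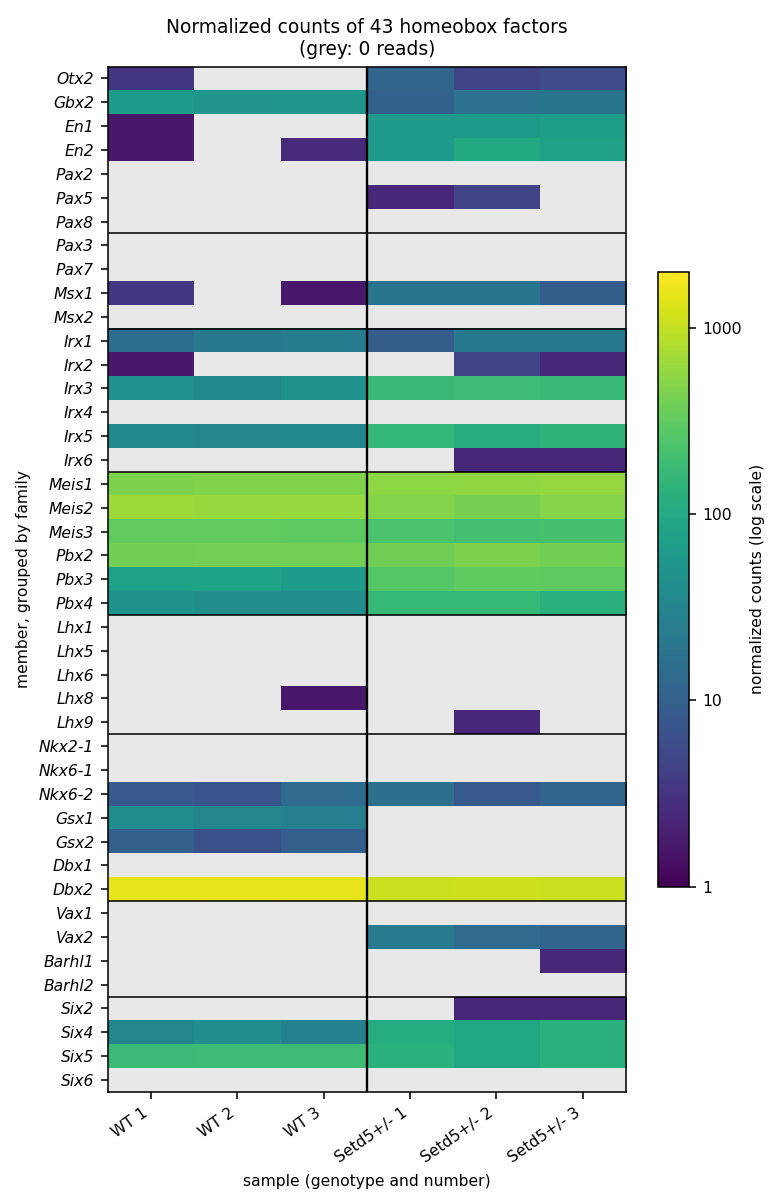
Normalized counts (colour, log scale) of the 43 members (rows, grouped by family) in the 3 WT and 3 Setd5+/- samples (columns), with grey for 0 reads. Dbx2, Meis1, Meis2 and Pbx2 are the brightest rows in all 6 samples, Gsx1 and Gsx2 are grey in the 3 Setd5+/- samples and Vax2 is grey in the 3 WT samples.

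The comparison between genotypes asked which of these factors differed in level in the Setd5+/- NSCs. Levels were compared as log2 of the ratio of mean normalized counts, each with 1 added, over genes with a mean of at least 10 in the 6 samples, and a gene was called when it was at least 2-fold different. Of the 43 members 17 passed this filter, and 7 of them (En1, En2, Irx3, Irx5, Pbx3, Pbx4 and Six4) were at least 2-fold higher in Setd5+/- NSCs, where 10.3% of all tested genes were. A further 2, Gbx2 and Gsx1, were at least 2-fold lower, where 6.14% of all tested genes were. The other 8 (Irx1, Meis1, Meis2, Meis3, Pbx2, Nkx6-2, Dbx2 and Six5) were under 2-fold. En1, En2 and Gsx1 passed the filter only through the genotype in which they were high, so the counts describe the members and support nothing further. The median log2 fold change of the 17 was 0.28, with Gsx1 on the low side of it at its bound also. Intervals are 95% counting intervals, in which the variance of reads is taken as 2 times their mean, since pairs and not reads are independent. They exclude 0 for 14 of the 17 members, and for 64.8% of all tested genes.

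**Figure D2:**
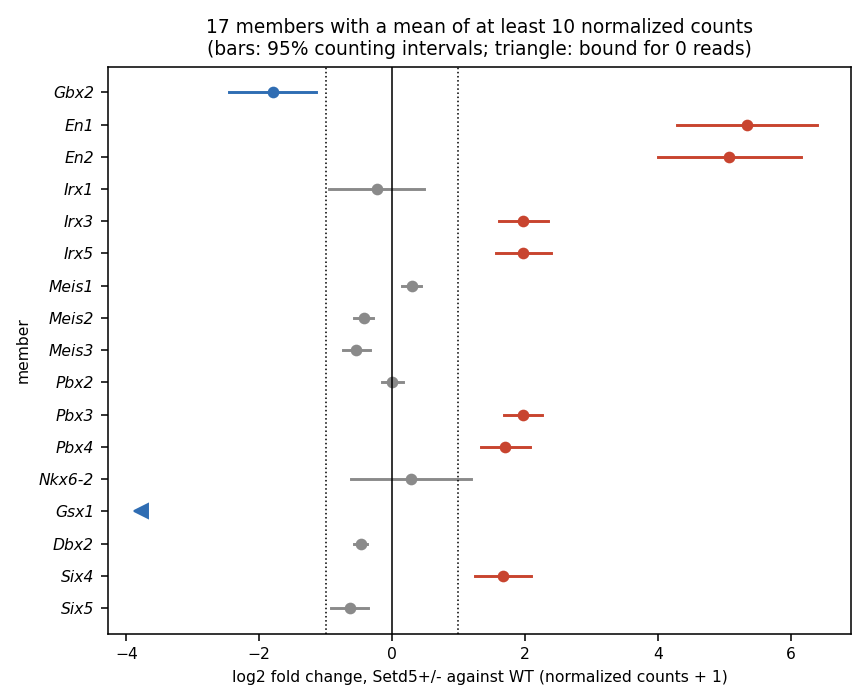
Log2 fold change of Setd5+/- against WT for the 17 members that passed the filter, with 95% counting intervals as bars and dotted lines at 2-fold. The triangle marks the bound for Gsx1, which had 0 reads in Setd5+/- NSCs and is drawn with no pseudocount. En1 and En2 lie farthest to the right, near 5, and Irx3, Irx5, Pbx3, Pbx4 and Six4 lie between 1.67 and 1.98.

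Of the 7 members of the midbrain and hindbrain boundary, En1 and En2 were higher and Gbx2 was lower in Setd5+/- NSCs. En1 and En2, the Engrailed factors that are expressed on both sides of this boundary and pattern the midbrain and cerebellum, had near 0 reads in WT and were expressed in Setd5+/- NSCs. En1 (chromosome 1, 120602418 to 120607992) had 1.66, 0 and 0 normalized counts in the samples of WT against 58.4, 59.5 and 69.1 in the Setd5+/- samples. The samples of the genotypes did not overlap, and the WT level rested on 2 reads against 157 reads. In bulk RNA, fewer expressing cells and less RNA per cell cannot be told apart, here and for every member. The ratio was 113 (95% exact counting interval 19.7 to 4510). En2 (chromosome 5, 28165694 to 28172166) had 1.66, 0 and 2.48 normalized counts in WT against 60.8, 100.0 and 77.4 in Setd5+/- NSCs, a ratio of 57.5 (17.5 to 351) from 5 and 200 reads. All 3 Setd5+/- samples again lay above all 3 WT samples. On the log2 scale with the pseudocount these were differences of 5.35 and 5.08.

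The sequence before the start of En1 is shown because the member went from 2 reads to an expressed level. It is the 181 bases of chr1:120602237-120602417 on the plus strand, from the RefSeq promoter table of GRCm38.p6, up to the first annotated base of the gene. Capitals mark CpG dinucleotides, of which there are 15.
En1: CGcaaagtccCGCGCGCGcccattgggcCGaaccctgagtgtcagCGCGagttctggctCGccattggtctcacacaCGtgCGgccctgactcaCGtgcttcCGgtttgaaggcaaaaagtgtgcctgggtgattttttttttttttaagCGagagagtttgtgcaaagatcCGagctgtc

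Neighbouring genes were looked up for every member as the closest protein-coding gene on each side. On one side of En2, 28.7 kb away, Cnpy1, known from zebrafish as a regulator of FGF signalling at the same boundary, had 7.17 normalized counts in WT against 478.5 in Setd5+/- NSCs, and its log2 fold change was 5.87. On the other side Insig1, which acts in sterol sensing, was at 0.12. Beside En1, Marco had 0 reads in both genotypes and Insig2, at a distance of 696 kb, was at 1.21. The median over all tested genes of that chromosome, chromosome 1, was 0.53. These neighbours lie outside the rule for naming genes and were chosen after their values were seen.

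Gbx2, which is needed for the anterior hindbrain, was the member of this family that was lower. It lies on chromosome 1 from 89927956 to 89931179 and had 67.2, 52.1 and 53.8 normalized counts in WT against 10.7, 17.9 and 19.1 in Setd5+/- NSCs. No Setd5+/- sample reached the level of a WT sample, and the mean was 3.63-fold lower (2.24 to 6.19). The opposite strand carries the non-coding gene D130058E05Rik, which shares 946 exon bases with Gbx2 and had 100.8 normalized counts in WT against 49.6 in Setd5+/- NSCs. The library kit does not mark strand, so reads of the shared bases cannot be told apart. The neighbours Agap1 and Asb18 were at a log2 fold change of 0.50, near the chromosome 1 median of 0.53, and at 2.21 and 0 normalized counts.

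Otx2, the forebrain and midbrain factor that meets Gbx2 at the boundary, had 3.32, 0 and 0 normalized counts in WT against 11.9, 4.76 and 5.96 in Setd5+/- NSCs. Its ratio was 6.82 (1.43 to 64.5) from 4 and 19 reads, and it was expressed in neither genotype. Pax5, a factor of the boundary region that acts with Pax2, had 0 reads in WT against 6 in Setd5+/- NSCs, or 2.38 normalized counts. The 0 reads in WT allow up to 1.66 normalized counts. Pax5 was expressed in neither genotype, and with so few reads no fold is given. Pax2 and Pax8 had 0 reads.

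Of the 4 dorsal neural tube factors, only Msx1 was detected. Pax3, Pax7 and Msx2, which mark the dorsal neural tube and neural crest progenitors, had 0 reads in all 6 samples. Msx1, a homeodomain repressor that responds to BMP signals, had 3.32, 0 and 1.66 normalized counts in WT against 19.1, 19.1 and 9.53 in Setd5+/- NSCs. The groups did not overlap, and the ratio of the means was 9.58 (2.84 to 50.4) from 6 and 40 reads. With a mean of 8.77 over the 6 samples Msx1 lay just under the filter and was not among the genes compared.

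The window before Msx1 is given for the same reason as that of En1. It is chr5:37824586-37824835, the minus strand, 250 bases with 20 CpG in capitals.
Msx1: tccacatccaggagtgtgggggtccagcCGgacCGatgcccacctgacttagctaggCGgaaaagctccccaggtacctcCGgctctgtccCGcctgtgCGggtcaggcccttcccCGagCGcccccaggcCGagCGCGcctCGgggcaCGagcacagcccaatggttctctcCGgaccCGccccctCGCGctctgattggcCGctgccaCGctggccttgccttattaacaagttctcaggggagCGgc

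The Iroquois factors, which act in the patterning of the neural plate and the thalamus, lie in 2 clusters of 3 genes. Within the cluster on chromosome 8, which spans 882 kb, Irx3 and Irx5 were both about 4-fold higher in Setd5+/- NSCs. Irx3 (91798525 to 91802067) had 46.4, 34.7 and 48.0 normalized counts in WT against 166.9, 183.4 and 168 in Setd5+/- NSCs, 4.01-fold higher (3.08 to 5.26). Irx5 (92357625 to 92376286) had 34.8, 33.1 and 34.8 in WT against 157.3, 114.3 and 141.8 in Setd5+/- NSCs, 4.03-fold higher (3.00 to 5.47). The lowest Setd5+/- sample of each gene lay well above the highest WT sample. Irx6, the third gene of the cluster, had 0 reads in WT against 4 in Setd5+/- NSCs. Fto, the neighbour of Irx3 on the outer side and a gene for an RNA demethylase, was at a log2 fold change of −0.15. Irx3os, on the opposite strand of Irx3 with 124 shared exon bases, had 6.35 and 23.8 normalized counts.

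In the cluster on chromosome 13, which spans 1312 kb, Irx1 was the only gene that passed the filter, and it was under 2-fold. It had 15.8, 21.5 and 24.8 normalized counts in WT against 9.53, 21.4 and 21.4 in Setd5+/- NSCs, and its log2 fold change was −0.23 with an interval of −0.95 to 0.49. Its samples overlapped, and the exact interval of its ratio, 0.47 to 1.47, holds both no difference and a 2-fold lower level. Irx2 was at 2 and 6 reads and Irx4 at 0.

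**Figure D3:**
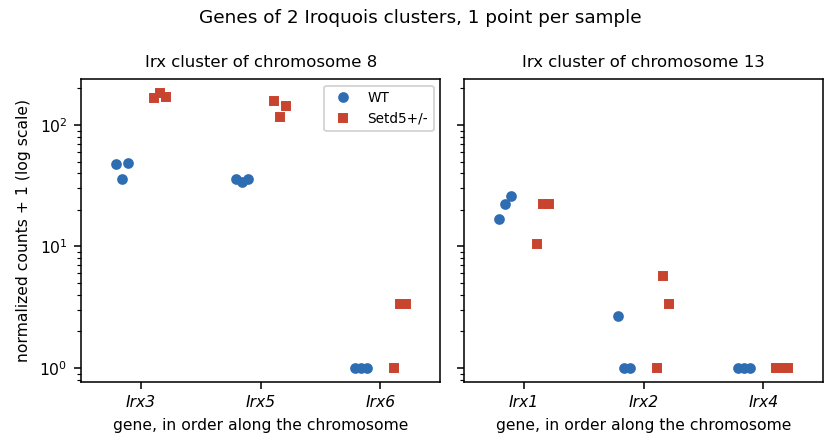
Normalized counts plus 1 (log scale) of the genes of 2 Iroquois clusters in their order along the chromosome, with 1 point per sample and circles for WT and squares for Setd5+/-. Irx3 and Irx5 of chromosome 8 lie higher in all 3 Setd5+/- samples, while the points of Irx1 on chromosome 13 overlap.

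All 6 TALE cofactors were expressed in both genotypes, and they split by gene. Pbx3 and Pbx4, partners of Hox and other homeodomain proteins, were higher in Setd5+/- NSCs, and Pbx2 and the Meis genes were under 2-fold. Pbx3 (chromosome 2, 34171457 to 34373142) had 77.1, 81.9 and 65.4 normalized counts in WT against 272.9, 310.8 and 305 in Setd5+/- NSCs, 3.96-fold higher (3.24 to 4.86). Pbx4 (chromosome 8, 69832491 to 69872292) had 51.4, 43.02 and 41.4 in WT against 162.1, 160.8 and 127.5 in Setd5+/- NSCs, 3.32-fold higher (2.55 to 4.35). Neither gene had a Setd5+/- sample within the range of the WT samples. The neighbours of Pbx3, Mvb12b and Mapkap1, were at log2 fold changes of −0.19 and −0.29, and those of Pbx4 were Lpar2 at 1.15 and Cilp2 at −0.02.

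Pbx2 stood at 391, 414 and 409 normalized counts in WT against 379, 445 and 393 in Setd5+/- NSCs, and its ratio of 1.00 had an interval of 0.89 to 1.12. The samples of the genotypes overlapped. Among the Meis genes, which encode the partners that Pbx proteins bind, Meis1 had 450.3, 472.4 and 471.2 in WT against 544.7, 560.9 and 602.8 in Setd5+/- NSCs (log2 fold change 0.29, interval 0.15 to 0.44). Meis2 was lower, under the threshold, with 649, 613 and 614 in WT against 489, 414 and 496 in Setd5+/- NSCs (−0.42, −0.57 to −0.28). Meis3 had 325, 323 and 299 in WT against 230.0, 206 and 216 in Setd5+/- NSCs (−0.54, −0.74 to −0.33). For the 3 Meis genes the samples, parts of 1 library per genotype, did not overlap. Their intervals exclude 0, as do those of 64.8% of all tested genes, but counting error is the only error in them. Meis1 shares 1029 exon bases with Gm37818 of the same strand (26.2 and 25.4 normalized counts) and Pbx2 shares 227 with Gpsm3 (7.45 and 5.56), so a small part of their reads is uncertain.

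The 5 LIM homeobox factors were at the floor in both genotypes. Lhx1 and Lhx5, which act in early forebrain and spinal interneurons, and Lhx6, a factor of cortical interneurons, had 0 reads. Lhx8 had 2 reads in WT and Lhx9 had 2 reads in Setd5+/- NSCs.

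The factors of ventral and intermediate progenitor domains held both the member with the highest level and the pair with reads in WT and none in Setd5+/- NSCs. Gsx1 and Gsx2 pattern the progenitors of the lateral ganglionic eminence, the ventral neighbour of the cortex. Gsx1 (chromosome 5, 147188696 to 147190947) had 39.8, 31.4 and 26.5 normalized counts in WT against 0 in each of the 3 Setd5+/- samples. The 118 reads in WT were set against 0 reads, and the level in Setd5+/- NSCs was at least 13.7-fold lower. Gsx2 (chromosome 5, 75075601 to 75077893) had 9.95, 6.62 and 9.94 normalized counts in WT against 0 in Setd5+/- NSCs, at least 3.71-fold lower, from 32 reads and 0 reads. Every WT sample of both genes held reads and no Setd5+/- sample did. Gsx2 was under the threshold for expression and under the filter, with a mean of 4.42. The genes next to Gsx2, Chic2 and Pdgfra, the last a receptor of oligodendrocyte precursors, were at log2 fold changes of −0.05 and 0.25, and next to Gsx1 Polr1d was at −0.91 and Pdx1 at 0 reads.

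The windows before Gsx1 and Gsx2 are shown as the pair of related genes for which no read was counted in Setd5+/- NSCs. Both lie on the plus strand of chromosome 5, chr5:147188446-147188695 with 15 CpG and chr5:75075351-75075600 with 16 CpG, the capitals marking CpG in 250 bases each.
Gsx1: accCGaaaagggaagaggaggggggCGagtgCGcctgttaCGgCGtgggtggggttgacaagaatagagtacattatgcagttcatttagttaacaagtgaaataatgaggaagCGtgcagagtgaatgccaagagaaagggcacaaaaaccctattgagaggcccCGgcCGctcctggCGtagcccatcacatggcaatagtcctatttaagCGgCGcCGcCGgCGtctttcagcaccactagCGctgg
Gsx2: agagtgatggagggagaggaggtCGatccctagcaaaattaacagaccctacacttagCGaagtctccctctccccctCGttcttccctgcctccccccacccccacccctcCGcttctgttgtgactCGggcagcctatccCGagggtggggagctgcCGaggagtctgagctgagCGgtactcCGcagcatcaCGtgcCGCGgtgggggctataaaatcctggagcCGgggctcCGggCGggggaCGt

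Dbx2, a factor of intermediate progenitors of the spinal cord that is also found in postnatal neural stem cells, took the largest share of the members' reads, 39.2% of 14052 in WT and 27.6% of 10009 in Setd5+/- NSCs. It had 1493, 1565 and 1506 normalized counts in WT against 1099, 1111 and 1077 in Setd5+/- NSCs. The 3 Setd5+/- samples lay below the 3 WT samples, with a log2 fold change of −0.47 (−0.57 to −0.38) that was under the 2-fold threshold. The gene beside it, Nell2, a secreted neuronal protein, was at 1466 and 179 normalized counts, a log2 fold change of −3.02, and Ano6 on the other side was at 0.92. Nkx6-2, which marks ventral progenitors and oligodendrocyte precursors, had 8.29, 7.45 and 14.1 in WT against 16.7, 8.34 and 11.9 in Setd5+/- NSCs. Its groups overlapped (0.28, −0.62 to 1.18). The gene lies over Inpp5a of the opposite strand, with 246 shared exon bases and 113.5 and 149.3 normalized counts, so its reads are uncertain. Nkx2-1, Nkx6-1 and Dbx1, which mark the most ventral telencephalon, the ventral spinal cord and the border progenitors, had 0 reads.

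Vax2 was the only factor of eye and diencephalon found above the floor. This regulator of the ventral retina (chromosome 6, 83711264 to 83738313) had 0 reads in the 3 WT samples and 22.6, 14.3 and 11.9 normalized counts in the Setd5+/- samples. From 41 reads, it was at least 9.83-fold higher in Setd5+/- NSCs, and its mean of 8.14 over the 6 samples kept it under the filter. The antisense gene Vax2os, which shares no exon base with it, had 0 and 8 reads. The neighbours Cd207 and Atp6v1b1 were at 0 reads in WT and at 0 and 0.79 normalized counts in Setd5+/- NSCs. Vax1 and Barhl2 had 0 reads and Barhl1 had 2 reads in Setd5+/- NSCs.

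Six4 and Six5 were expressed in both genotypes, the first higher in Setd5+/- NSCs and the second under 2-fold. Six4 (chromosome 12, 73099609 to 73113456), which acts in muscle and sensory placodes, had 33.2, 41.4 and 28.2 normalized counts in WT against 109.6, 95.3 and 128.7 in Setd5+/- NSCs, 3.25-fold higher (2.39 to 4.45). Its genotypes did not overlap. Six6, an eye and pituitary factor, had 0 reads. Six5, a gene beside the kinase gene Dmpk, had 175.8, 182 and 183 in WT against 127.5, 92.9 and 126.3 in Setd5+/- NSCs (−0.64, −0.92 to −0.36), lower in each sample and under 2-fold. Six2, a factor of kidney progenitors, had 0 reads in WT against 4 in Setd5+/- NSCs.

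**Figure D4:**
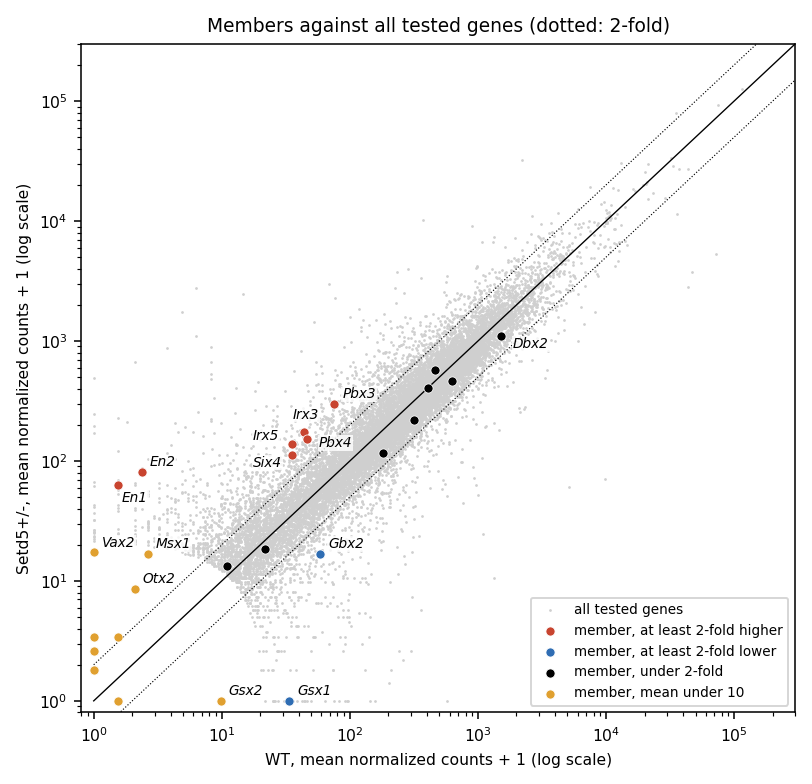
Mean normalized counts plus 1 in WT (x axis) and Setd5+/- NSCs (y axis), both on log scales, for the 16266 tested genes (grey) and the members with a read, coloured by call, with dotted lines at 2-fold. En1 and En2 lie far above the upper dotted line and Gsx1 lies on the lower edge at 0 reads in Setd5+/- NSCs, while Dbx2 lies between the dotted lines.

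Compared per length, as normalized counts per kb of annotated exon, Dbx2 was the highest member in both genotypes, at 438 in WT against 316 in Setd5+/- NSCs. Pbx2 and Meis3 followed in WT with 111 and 99.5, then Six5 with 60.0 and Meis2 with 51.9. In Setd5+/- NSCs Pbx2 at 111 and Meis3 at 68.5 kept their places, and Pbx4 at 67.7 and Irx3 at 62.5 came next, where they had been at 20.4 and 15.6 in WT. With 1 library per genotype, the spread that would rank such neighbours was not measured. Annotated exon length counts every isoform, so these levels are approximate.

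Other genes of the same families were looked at as a list of 29, of which 28 were found and 12 passed the filter. At least 2-fold higher were 4 of the 12 (Tgif1, Isl2, Mkx and Six3), and Pknox2 was lower, where 10.3% and 6.14% of all tested genes were. Isl2, Mkx and Six3 passed the filter only through Setd5+/- NSCs, in which they were high, so these counts describe the list and support nothing further. The downward difference past 2-fold was that of Pknox2, a TALE factor with 265 normalized counts in WT against 104 in Setd5+/- NSCs (log2 fold change −1.34, −1.61 to −1.06). Tgif1, a TALE repressor, had 59.9 and 427 normalized counts. Isl2, a LIM factor of motor neurons and the largest upward log2 fold change of the 12 (3.75, 2.76 to 4.74), had 2.76 and 49.6. Six3 had 6.07 and 17.1 normalized counts and Mkx 1.66 and 20.3. Without the sample Setd5+/- 2, Six3 and Mkx fell under the filter and 3 of the list were left past 2-fold. Tgif1, Six3 and Mkx were named after their values were seen.

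The factors that mark the telencephalon, from which the cells were taken, were looked at beside the members. Of 14 such genes 8 passed the filter, 2 were at least 2-fold higher in Setd5+/- NSCs, where 10.3% of all tested genes were, and 0 at least 2-fold lower, where 6.14% were. The largest upward difference was that of Nr2f2, a nuclear receptor of the caudal telencephalon, with 2.21 and 58.4 normalized counts (log2 fold change 4.21, 3.18 to 5.24). The other that was higher was Dlx1, a ventral telencephalic homeobox factor, with 1.66 and 28.6 normalized counts. Nr2f2 and Dlx1 passed the filter only through Setd5+/- NSCs, in which they were high, so their count describes the list only. The largest downward difference among the 8 was that of Sp8, a zinc finger factor of the forebrain, with 101 and 59.96 normalized counts (−0.75, −1.13 to −0.37), which was under 2-fold. Emx1, a marker of the dorsal telencephalon, had 2 reads in WT against 0 in Setd5+/- NSCs. Of 18 patterning signals and their regulators 3 passed the filter and 2 were at least 2-fold lower, where 6.14% of all tested genes were. Cyp26b1, an enzyme that breaks down retinoic acid, had 40.6 and 6.35 normalized counts (−2.50, −3.42 to −1.58), the largest downward difference of the list, and Bmp7 was the other that was lower, at −1.29. Cyp26b1 passed the filter only through WT, in which it was high. None of the 3 was at least 2-fold higher, and the largest log2 fold change upward was 0.27, of Wnt7b. Fgf8, a signal of the midbrain and hindbrain boundary, had 12 reads in WT against 4 in Setd5+/- NSCs (−0.74, −2.25 to 0.78). Wnt1, which also acts there, had 0. Fgf15, another FGF of this list, had 0 reads in WT against 10 in Setd5+/- NSCs, at least 2.40-fold higher. Fgf17 had 16 reads in WT against 4 in Setd5+/- NSCs (−1.07, −2.54 to 0.41), and Fgf18 had 2 in each genotype. All FGFs of the list lay under the filter. Dlx1, Emx1, Bmp7, Fgf8, Fgf15 and Wnt1 were named after their values were seen.

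Markers of other cell types were counted as lists, beside the 10.3% of all tested genes that were at least 2-fold higher and the 6.14% that were lower. At least 2-fold lower were 5 of 8 neuron markers tested, 3 of 7 astrocyte markers, 2 of 8 oligodendrocyte lineage markers and 1 of 2 neural crest markers, the last being Sox10, which is also 1 of the 2 oligodendrocyte lineage markers (1080 reads in WT, 4 in Setd5+/- NSCs). At least 2-fold higher were 3 astrocyte markers and the 1 endothelial marker tested. Neither of the 2 mesenchymal markers tested nor the 1 microglia marker tested was past 2-fold. Some markers, also among those of neural stem cells, passed the filter only through the genotype in which they were high, so the counts describe the lists only.

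The summed levels of these lists often rested on 1 gene. The neuron list summed to 10961 to 11317 normalized counts in the WT samples and 12759 to 12837 in the Setd5+/- samples, and without Map2 to 1101 to 1128 and 324 to 368. The astrocyte list summed to 11700 to 11786 and 9970 to 10025, and without Slc1a2 to 6982 to 7107 and 8734 to 8793. The neural crest list summed to 1133 to 1192 and 1255 to 1265, and without Ets1 to 288 to 325 and 11.9 to 26.2. In these 3 lists the order of the genotypes turned without the named gene, as it did in the mesenchymal list, at 485 to 500.0 and 616 to 730.0 with Prrx1 and 100.1 to 116.8 and 59.6 to 64.3 without it. The oligodendrocyte lineage list was lower in Setd5+/- NSCs with Olig1 (41380 to 42146 and 24299 to 25166) and without it (12809 to 12956 and 8900 to 9284). The endothelial list summed to 9.11 to 16.5 and 13.1 to 28.6. The microglia list summed to 78.6 to 118.6 and 48.9 to 70.3, nearly all of it Csf1r. Without Csf1r it summed to 1.66 to 2.48 and 3.58 to 7.15, so its order turned also, at levels near the floor. The 8 choroid plexus and roof plate markers summed to 4.97 to 14.9 and 4.76 to 17.9, and none reached a mean of 10. This list holds Otx2, which is also a member. Neurod1 in the neuron list, Lum, Tbx18, Twist1 and Twist2 in the mesenchymal list, Foxd3 in the neural crest list, Folr1, Kl, Lmx1a and Ttr in the choroid plexus and roof plate list, and Cx3cr1 and Ptprc in the microglia list had 0 reads in both genotypes. The part of these cell types in the differences of the members was not tested.

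The promoters of the members were described from the RefSeq table of GRCm38.p6, in windows of 300 bases around the RefSeq start farthest upstream. Of the 43 members 35 matched an entry, all but Pax3, En2, Irx1, Irx5, Irx6, Pbx3, Lhx5 and Vax2. For some members, among them Otx2, Pax2, Lhx9 and Dbx2, the window does not reach the gene start of the annotation used for positions (GENCODE M21). The members' windows were rich in CpG, with a median of 17 CpG (range 4 to 42) against 7 in the 27025 windows of all genes, and 29 of 35 (82.9%) held at least 10 CpG against 44.0% of all windows. The motif TAAT, the core that many homeodomains bind, was found on either strand in 19 of the 35 windows (54.3%), and in 58.4% of all windows. Its palindrome TAATTA, which contains TAAT, was in 3 (8.57%) against 5.32%, and TGACAG, the letters bound by Meis proteins, in 8 (22.9%) against 19.3%. TGATTGAT, the element of Pbx with a Hox protein, was in 0 windows of members and in 0.78% of all windows. All 14 matched members that were expressed in either genotype had at least 10 CpG, where 29 of all 35 matched members did. The share among all genes expressed in these cells was not computed, and a link of CpG with expression was not tested. A match is a description of letters and not a binding site.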

How the data were processed

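Libraries had been made with a TruSeq RNA kit, which does not mark strand, and read as pairs. Per the labels and the methods of the study, reads were trimmed with Trimmomatic and aligned with Bowtie2 to mm10. The counting program, its strand setting and the tool versions are not given in the sources used here. The deposited values (unit: other) are counts of reads on genes that the authors divided by DESeq2 size factors, and the authors' own log2 fold changes, errors, test statistics and p-values in the same table were not used. Many deposited values had lost their decimal point. The point was set where a value became a whole number of reads (within 0.01), with 1 read worth 0.829, 0.827 and 0.828 normalized counts in the WT and 1.19 in each Setd5+/- sample. In 1116 genes the deposited mean of the 6 samples settled it, and the mean of the restored values equalled the deposited mean in all 52438 genes with values. The restoring, the calls, the counting intervals and limma were checked on simulated reads drawn with counting noise only. Such reads hold no spread between libraries or clones, so they cannot check the calls between genotypes for it.

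The 3 samples of a genotype were taken as parts of 1 library, so no SD or p-value between genotypes is given. The sum of reads on genes was 9995980 to 10004948 per WT sample and 7143309 to 7146147 per Setd5+/- sample. Genes whose mean reached 10 normalized counts were compared as log2 fold changes with a pseudocount of 1, and were called at an absolute value of at least 1. Intervals take the variance of reads as 2 times the mean, and measured ratios of variance to mean were 1.95 and 1.92. Ratios of low counts have exact (Clopper-Pearson) intervals on read pairs. Limma 3.58.1 in R 4.3.3 was run as an alternative only. Python 3.11.15 with numpy 2.4.6, pandas 2.3.3 and scipy 1.17.1 was used. Positions and exon lengths are from GENCODE M21 (GRCm38).

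All 43 members are named, with values for those expressed in either genotype. Setd5 and, in the lists of other homeobox genes, telencephalic factors and patterning signals, the largest fall and the largest rise among genes with a mean of at least 10 are named also, and the marker lists are given by counts with their genes at 0 reads. The members and lists were chosen with earlier results of these data known. The lists are given without items that are not reported here. Values at other oxygen levels were not analysed here.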

Additional observations from a re-analysis of the deposited data

How the results depend on the processing

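The calls of the members were recomputed under other settings. Under pseudocounts of 0.5 and 5, equal totals, upper-quartile scaling, centring on genes outside chromosome 1 and a counting interval that must exclude 0, the same 9 members were past 2-fold, 7 higher and 2 lower. Under these settings 17 members and 16266 genes were tested, and 2382 to 2703 of the genes were past 2-fold. A change of at least 1.5-fold added Six5 among the lower ones and called 5722 of the 16266 genes tested (3201 higher, 2521 lower). With no filter on low values 17 of 28 members were past 2-fold (14 higher, with Irx2, Irx6, Msx1, Otx2, Pax5, Six2 and Vax2 added, and 3 lower, with Gsx2 added). So were 9 of the other homeobox genes, and 5541 of 26797 genes in all (3141 higher, 2400 lower). At a mean of at least 50 normalized counts 5 of 11 members tested were past 2-fold, all higher (Irx3, Irx5, Pbx3, Pbx4 and Six4), and 0 were lower. There 2 other homeobox genes were past 2-fold, and 1620 of 12570 genes in all (1032 higher, 588 lower). En1, En2, Gbx2 and Gsx1 were not tested there, by construction. With a 4-fold threshold 3 of the 17 members were left, En1 and En2 (2) higher and Gsx1 (1) lower, with 3 other homeobox genes. Of the 16266 genes tested 783 were left (481 higher, 302 lower).

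Limma with Benjamini-Hochberg adjustment at 0.05, which compares the reads of the 2 libraries, called 14 of 17 members with no replicate block, 8 higher and 6 lower (Meis1, Dbx2, Meis2, Meis3 and Six5 added). It called 10 other homeobox genes and 9963 of the 16266 genes tested (4935 higher, 5028 lower). With the replicate number as a block it called the same counts of members and of other homeobox genes and 9946 genes (4934 higher, 5012 lower). The numbers do not pair the samples, since the correlations of deviations of same-numbered samples were 0.0049, 0.0015 and −0.0071.

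With each sample left out in turn, the members past 2-fold were 9 or 10, with Msx1 added without WT 2 or WT 3, and the other homeobox genes past 2-fold were 3 to 5. Of all genes tested there, 2669 to 2745 were past 2-fold. The log2 fold changes of the 9 members past 2-fold kept their sign under all these settings, and that of Setd5 stayed within its counting interval. Of the members, 16 were expressed in WT and 19 in Setd5+/- NSCs at a threshold of 5 normalized counts, and 19 and 23 with more than 3 reads. The order turned at 20 normalized counts, with 14 and 13. Of 187 values of single members under alternatives 4 moved beyond the counting interval, En1 (3.60) and En2 (3.73) with a pseudocount of 5, and Gsx1 (−6.05 and −2.91) with pseudocounts of 0.5 and 5. Depth limits the 24 members that reached 10 normalized counts in neither genotype. No sample measures how cultures or clones of 1 genotype differ.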
